A study of Mus musculus with 16 samples.

Results

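The serpins of activated leukocytes described here are 6 mouse genes: Serpina3f (ENSMUSG00000066363), Serpina3g (ENSMUSG00000041481), Serpinb1a (ENSMUSG00000044734), Serpinb6a (ENSMUSG00000060147), Serpinb6b (ENSMUSG00000042842) and Serpinb9 (ENSMUSG00000045827). They were chosen by symbol from the 32285 genes listed in each of 8 matrices and followed in 5 sets of tumour leukocytes (T, NK, dendritic, monocyte and macrophage). All 6 were detected in every one of these sets. No marker of activation was used to choose the cells, so whether the genes mark activated cells was not tested.

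Serpins are protease inhibitors that trap their target in an irreversible complex. Members of clade B lack a classical signal peptide and mostly act inside cells, where they protect leukocytes from proteases that escape their own granules or lysosomes. Serpinb9 inhibits granzyme B, Serpinb6b is known to inhibit granzyme A, Serpinb6a inhibits cathepsin G, and Serpinb1a inhibits neutrophil elastase, cathepsin G and proteinase 3. Serpina3g, also called Spi2A, inhibits lysosomal cathepsins such as cathepsin B and is known as an interferon-inducible gene of T cells and macrophages, and Serpina3f is a related gene of the same cluster.

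The tumours were subcutaneous B16 melanomas in C57BL/6J mice, raised from 1000000 implanted cells of the Bro4.1 line that were either control cells or B2m-null, lacking the light chain of MHC class I. The mice received 100 µg of an anti-CD40 antibody or of a rat IgG2a isotype antibody intraperitoneally on days 6, 9 and 12, and the tumours were taken on day 14. Cells selected on CD45 beads were marked so that each mouse carried its own hashtag antibody, and the mice of a pool shared 1 droplet lane. The sample labels place the genotype in the mouse and the design text in the implanted cells, and the design text was followed; whether the null line is 1 clone is not given in the sources used here. The groups held 5 mice with control tumours under isotype (2 pools), 2 with control tumours under CD40 (1 pool on 2 technical lanes), 5 with B2m-null tumours under isotype (2 pools) and 4 with B2m-null tumours under CD40 (2 pools). The labels list 3 hashtags per pool, while 2 of the files hold 3 and 6 hold 2, and mice were counted from the files. Mice of 1 pool share a lane, so a p-value over mice does not cover the spread between lanes. The 2 mice of control CD40 share a pool, so that pool and the treatment of control tumours cannot be told apart.

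Serpina3f and Serpina3g are neighbours on chromosome 12, with Serpina3f at 104214544 to 104221129 and Serpina3g at 104236147 to 104241939, 15.0 kb apart (RefSeq, GRCm38.p6, the assembly of the mm10 build). The clade B members lie on chromosome 13: Serpinb1a at 32842092 to 32853206, Serpinb6b at 32956811 to 32979067, Serpinb9 at 32997061 to 33017955 and Serpinb6a at 33917918 to 34002794. RefSeq gave a promoter window for 5 of the 6 members, the exception being Serpinb1a. The 150 bases before the transcript start inside a RefSeq window are shown for the Serpina3 pair and for Serpinb9, with matches in capitals. The Serpina3 pair are neighbours that were both lower in macrophages of B2m-null than of control tumours under isotype. The Serpinb9 start lies inside the gene's annotated span, at an inner transcript start. The motifs searched on both strands were TTCNNNGAA, the palindrome of the gamma interferon activation site, and the core of the interferon-stimulated response element, GAAA followed by any 2 bases and GAAA again; the palindrome reads the same on both strands.
Serpina3f (chr12:104214394-104214543, + strand): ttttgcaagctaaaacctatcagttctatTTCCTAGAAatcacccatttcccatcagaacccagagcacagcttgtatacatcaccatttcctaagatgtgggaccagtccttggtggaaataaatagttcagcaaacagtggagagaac
Serpina3g (chr12:104235997-104236146, + strand): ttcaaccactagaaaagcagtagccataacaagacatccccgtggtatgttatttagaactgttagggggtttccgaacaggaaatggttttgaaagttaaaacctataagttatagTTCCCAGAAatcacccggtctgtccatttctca
Serpinb9 (chr13:33004391-33004540, + strand): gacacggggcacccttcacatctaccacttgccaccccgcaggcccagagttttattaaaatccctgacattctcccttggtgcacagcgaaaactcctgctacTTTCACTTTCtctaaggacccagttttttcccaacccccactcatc
In Serpina3f the capitals mark TTCNNNGAA at 121 to 113 bases before the start, and in Serpina3g at 33 to 25 bases before it. In Serpinb9 they mark the reverse strand of the response element core at 46 to 37 bases before the start. Of 32851 windows with 250 bases before a start, 7.02% held TTCNNNGAA and 2.98% held the response element core. Of the 2 Serpinb6a windows, 1 held a match to both motifs, which overlap there, and the Serpinb6b window matched neither. A match is a string of letters and was not tested for binding.

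The lanes held 46.0 M to 99.3 M UMIs (unique molecular identifiers, the counts of these files), and 116552 barcodes in all. After removal of hashtag doublets, 76266 cells were assigned to 1 mouse and passed the filters, and 62415 of them fell in the 5 gates: 19467 T, 2075 NK, 2904 dendritic, 9236 monocyte and 28733 macrophage cells. Lanes shared 41 to 92 barcodes, at most 0.623% of the smaller lane. Hashtags assigned 51.3% of the barcodes in B2m-null isotype pool 1 and 60.6% in B2m-null CD40 pool 1, against 75.1% to 86.3% in the other lanes. In cells with melanoma markers and no Ptprc, B2m was at 163 to 166 CPM (UMIs per 1000000 UMIs) in the B2m-null isotype lanes and 368 to 430 CPM in the B2m-null CD40 lanes, against 935 to 2029 CPM in the lanes labelled as control. The defining markers of each gate were all detected in it in every group. A gate is a range of marker counts: per lane, 1.37% to 17.6% of T, 13.8% to 38.2% of NK, 6.84% to 37.8% of dendritic, 15.8% to 44.1% of monocyte and 3.04% to 8.29% of macrophage cells lay at its limit (a marker sum of 2, or macrophage and monocyte sums within 2 UMIs). Some gates held markers of other cells, most of all under CD40: summed fibroblast markers (Col1a1, Col3a1, Dcn) reached 14151 CPM in a dendritic gate of B2m-null CD40, and summed neutrophil markers were 1401 to 3861 CPM in the monocyte gates of control CD40. Many results are therefore given also for cleaned gates, without cells that hold fibroblast, endothelial, neutrophil or melanoma transcripts, or, in the lymphoid gates, dendritic transcripts. This alternative was chosen after seeing the data, and its dendritic list holds Ccr7, which resting T cells also express.

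Serpinb6b and Serpinb9, the inhibitors of granzymes, shared a pattern: high in NK cells, high in dendritic cells, lower in T cells and low in monocytes and macrophages. Serpinb6b in the NK gate was 477 ± 53.3 (SD, n = 5) CPM in control isotype, 442 ± 23.7 (SD, n = 2) in control CD40, 475 ± 140.1 (SD, n = 4) in B2m-null isotype and 634 ± 152 (SD, n = 4) in B2m-null CD40. In the T gate it ranged from 104 to 323 CPM over the 16 mice, and in the macrophage gate from 3.07 to 15.8. The T gate was above the macrophage gate in 16 of 16 mice, whereas the NK gate was above the dendritic gate in 11 of 15. Serpinb9 in the NK gate was 467 ± 35.1 (SD, n = 5) CPM in control isotype, 442 ± 13.2 (SD, n = 2) in control CD40, 419 ± 141 (SD, n = 4) in B2m-null isotype and 529 ± 59.2 (SD, n = 4) in B2m-null CD40. It exceeded the dendritic gate in 14 of 15 mice, the dendritic gate exceeded the T gate in 13 of 16, and the T gate exceeded the monocyte gate in 16 of 16. Serpinb9 in monocytes (6.93 to 64.8 CPM) and macrophages (12.98 to 32.1 CPM) overlapped. These levels are a description without a test, since the list was made with results of these data known. B2m-null isotype pool 1 mouse 3 had under 20 NK cells and is left out of that gate.

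Within the dendritic gate, both granzyme inhibitors were highest in mature cells, defined by Ccr7 and Fscn1, under isotype. Serpinb6b in mature dendritic cells was 969, 1068, 1339, 909.9 and 1154 CPM in the 5 control isotype mice, against 123, 54.3, 42.0, 108 and 141 in Xcr1 or Clec9a cells (cDC1) and 0, 3.03, 10.9, 10.0 and 14.7 in Cd209a cells (cDC2) of the same mice, where 0 CPM in the first allowed up to 15.7. Serpinb9 was 496, 616, 577, 496 and 662 CPM in their mature cells, 56.0, 30.2, 118, 44.7 and 38.2 in cDC1 and 15.7, 12.1, 32.6, 5.02 and 11.04 in cDC2. The mature subset was above both others in all 5 mice for each gene. Mature cells of B2m-null isotype were at 920.4 to 1270 CPM for Serpinb6b and 452 to 600.4 for Serpinb9 in 4 mice. Under CD40, 2 mice of each tumour type had at least 20 mature cells (20 to 42), with lower values except for Serpinb9 in 1 B2m-null mouse. Serpinb6b was 58.9 and 794 CPM in control CD40 and 375 and 259 in B2m-null CD40, and Serpinb9 was 98.2 and 213 CPM in the former and 313 and 462 in the latter. These subsets were not cleaned of cells with fibroblast markers. Serpinb6b in CD8 T cells was 232 to 388 CPM in control isotype and 16.4 to 187 in regulatory (Foxp3) T cells.

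Serpinb6a, the cathepsin G inhibitor, had its highest level in macrophages. There it was 279 ± 55.1 (SD, n = 5) CPM in control isotype, 285 ± 53.5 (SD, n = 2) in control CD40, 455 ± 104 (SD, n = 5) in B2m-null isotype and 265 ± 66.0 (SD, n = 4) in B2m-null CD40. In cleaned gates macrophages exceeded NK cells, the next gate, in 14 of 14 mice, and NK, T and monocyte gates averaged 78.4, 75.0 and 35.2 CPM over the 4 group means. Its second place in the dendritic gate, 141 CPM over the group means, was in gates that also held fibroblast markers, and it was 20.9 CPM in the cleaned gate.

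Serpinb1a, the inhibitor of neutrophil serine proteases, was highest in the dendritic gate, at 70.3 CPM over the group means, above the T gate in 16 of 16 mice. In cleaned gates it was again highest there, at 64.8 CPM, above the T gate in 15 of 16 mice. Cleaning lowered its dendritic UMIs in control isotype from 475 to 321, with 1363 of 1398 cells kept. The highest mouse was at 149.8 CPM before cleaning and 82.5 after. The mean of B2m-null CD40 rose, from 87.7 to 107 CPM. Among dendritic subsets, which were not cleaned, Serpinb1a was highest in mature cells. These held 311, 86.9, 122, 24.6 and 169 CPM in the control isotype mice, against 0 to 7.46 in cDC1 and 14.7 to 45.2 in cDC2. How much of the mature level lay in cells with markers of other types was not tested. Control isotype pool 2 mouse 1, the lowest of these mature subsets, lay at 24.6 CPM and did not separate from cDC2. Macrophages ranged from 2.34 to 16.3 CPM and did not separate from NK cells, which were above them in 9 of 15 mice.

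Serpina3g, the cathepsin inhibitor, was present in both lymphoid and myeloid cells of control tumours. Under isotype it was 194 ± 43.1 (SD, n = 5) CPM in NK cells, 156 ± 37.4 (SD, n = 5) in T cells, 146 ± 25.3 (SD, n = 5) in dendritic cells, 122 ± 24.4 (SD, n = 5) in macrophages and 81.2 ± 18.7 (SD, n = 5) in monocytes. Over the mice of all groups, NK cells were above T cells in 12 of 15, so these did not separate. Monocytes were above macrophages in 8 of 16, a count that mixes treatments. Under CD40 monocytes were above macrophages, at 129.5 to 158 against 71.9 to 127 CPM in control tumours. In B2m-null tumours under CD40 they were at 99.0 to 162 against 63.8 to 82.2 CPM. In cleaned gates of control CD40 the 2 overlapped (71.7 to 89.9 and 72.4 to 125 CPM). NK cells and monocytes of control isotype did not overlap. Among dendritic subsets of control isotype, cDC1 were highest, at 181 to 272 CPM, above mature cells (74.2 to 104) and cDC2 (84.6 to 110.1) in all 5 mice. Serpina3f was low everywhere, with group means between 2.82 and 36.0 CPM, and its gates overlapped. Reads of the Serpina3 genes, of Serpinb6a with Serpinb6b and of Serpinb9 with its copies can match more than 1 gene, so a split between near copies is uncertain.

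**Figure D1:**
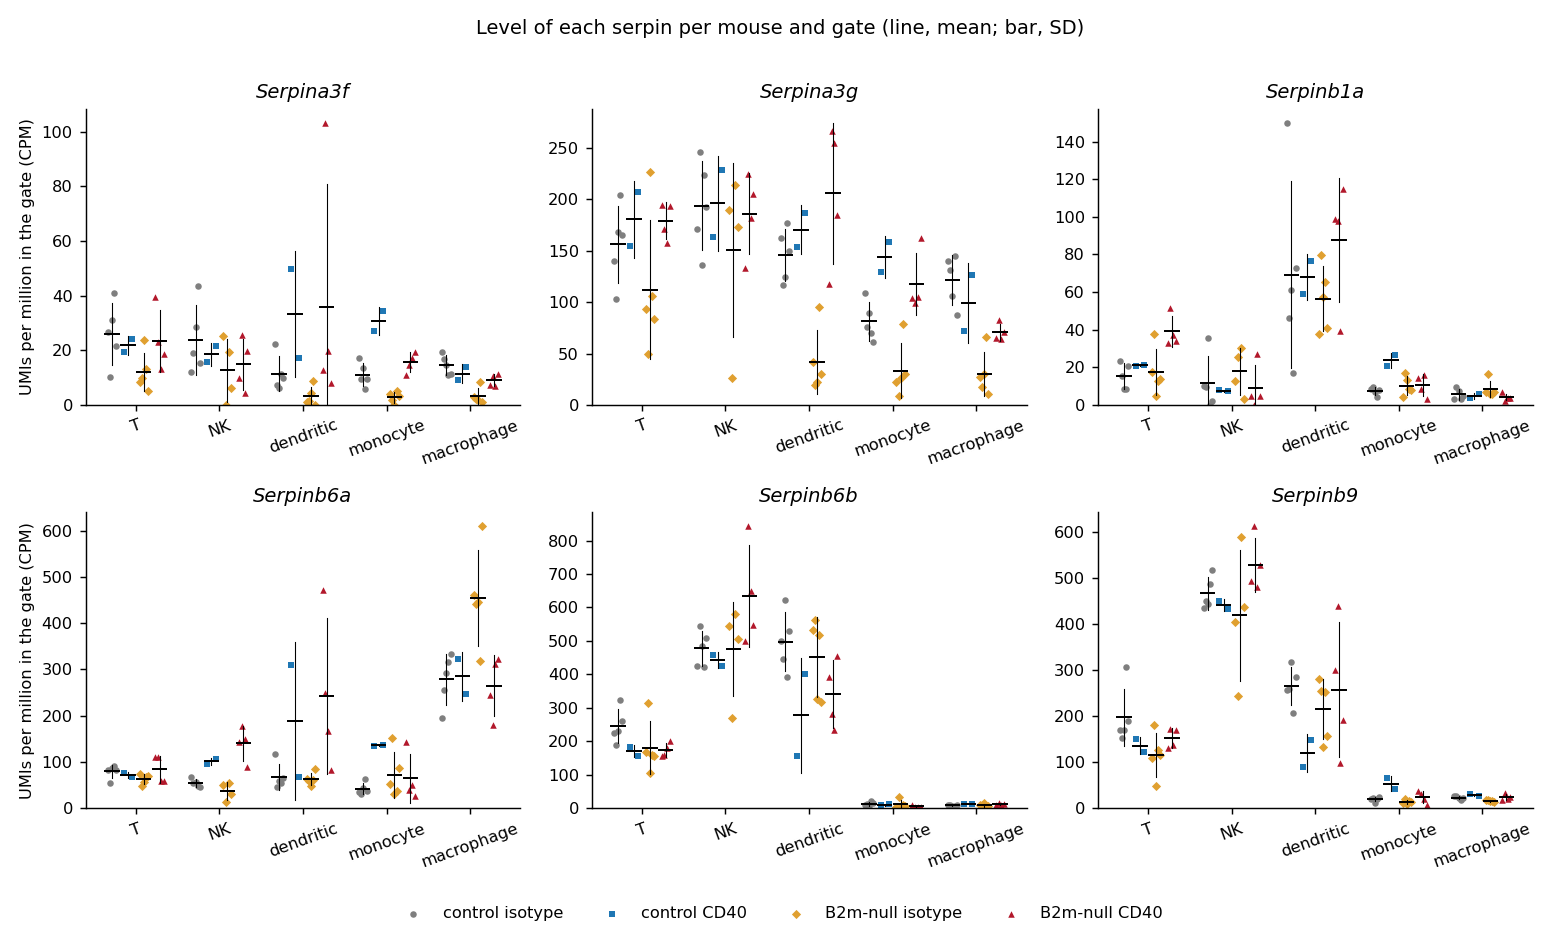
Level of each of the 6 serpins (y axis, UMIs per 1000000 UMIs of the gate, CPM, from 0) in 5 gates (x axis), with 1 point per mouse coloured by group, the mean as a line and the SD as a bar. Serpinb6b and Serpinb9 are high in NK and dendritic gates and near 0 in monocytes and macrophages, Serpinb6a is highest in macrophages, and Serpina3g in the B2m-null isotype mice is low in the 3 myeloid gates.

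**Figure D2:**
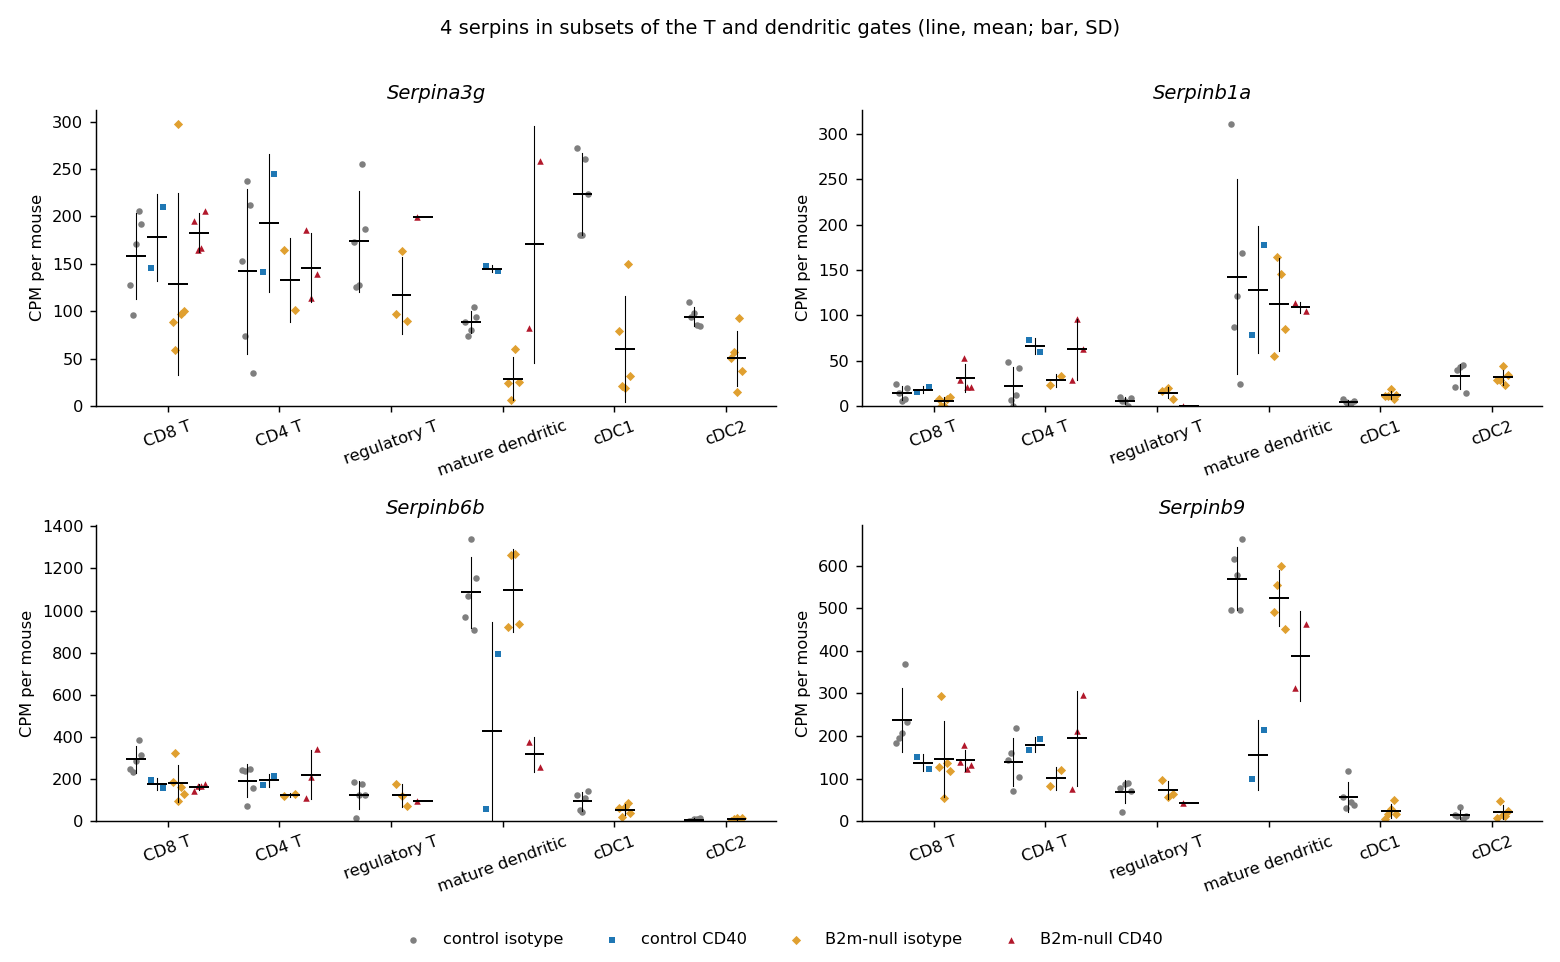
Levels per mouse (y axis, CPM, from 0) of Serpina3g, Serpinb1a, Serpinb6b and Serpinb9 in subsets of the T and dendritic gates (x axis), for subsets with at least 20 cells in a mouse, with mean and SD. Mature dendritic cells of the isotype groups have the highest Serpinb6b and Serpinb9, and cDC1 of control isotype the highest Serpina3g.

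The first comparison set B2m-null against control tumours under isotype. Serpina3g and Serpina3f were lower in macrophages of B2m-null tumours, Serpinb9 was lower and Serpinb6a higher. Of 28 tests of a member in a gate (Serpina3f and Serpinb1a were too low to test in NK cells), 5 were called, 4 of them lower, or 17.9%, against 2.93% of all gene and gate tests. Macrophages held 4 of them, in a gate where 8.84% of all genes were called, and monocytes 1, where 2.59% were. Called means an adjusted p under 0.05 in edgeR's quasi-likelihood test with Benjamini-Hochberg adjustment over all genes tested in the gate. The median of the members' log2 changes was -0.34, and that of all genes lay between -0.016 and 0.013 in the gates. The list was made with results of these data known, so this is no independent support.

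Serpina3g in macrophages was 140.4, 131, 106, 144 and 87.3 CPM in the 5 control isotype mice and 27.3, 17.4, 29.96, 65.9 and 10.9 in the 5 B2m-null isotype mice. The groups did not overlap, and B2m-null isotype pool 2 mouse 1 was the highest of its group. The log2 change was -2.01 ± 0.36 (SE), adjusted p = 0.00401, and the same in the cleaned gate (-2.01, adjusted p = 0.00382). With the lane as the unit the Serpina3g change was -2.18 (adjusted p = 0.00098), and Serpina3f in macrophages also kept its call (-2.16). The technical lanes of control CD40 were summed to 1 unit, whose spread is assumed like that of the other groups. Lane sums also took in cells that no hashtag assigned to a mouse, so lanes changed the cells as well as the unit. Serpina3f in macrophages was 19.4, 17.0, 14.5, 11.003 and 11.3 CPM against 2.83, 2.25, 1.66, 8.44 and 1.18 CPM, again without overlap, a log2 change of -2.03 ± 0.41 (SE), adjusted p = 0.00807. In monocytes Serpina3f fell by 1.51 ± 0.34 (SE) on the log2 scale (adjusted p = 0.0223), with 5.99 to 17.0 CPM in control and 0 to 5.16 in B2m-null tumours, where 0 UMIs in 1 mouse allowed up to 9.98 CPM. With lanes as units that call was lost (-1.72, adjusted p = 0.392).

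Serpina3g in dendritic cells was 163, 117, 124, 177 and 149.8 CPM in control isotype and 41.7, 18.9, 22.1, 95.7 and 30.4 in B2m-null isotype, without overlap, at a log2 difference of -1.64 ± 0.33 (SE), adjusted p = 0.0527. That p missed the threshold in the gate with all cells and passed it in the cleaned gate, at -1.49 ± 0.27 (SE), adjusted p = 0.00609; with lanes as units it was -1.46 (adjusted p = 0.547). In monocytes the Serpina3g difference was -1.03 ± 0.34 (SE), adjusted p = 0.13, and in T cells -0.66 ± 0.24 (SE), adjusted p = 0.163. In NK cells it was -0.24 ± 0.28 (SE), adjusted p = 1, with 136 to 246 CPM in control and 25.7 to 214 in B2m-null tumours. Whether the difference in macrophages is larger than in NK cells was not tested.

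Serpinb9 in macrophages was 26.2, 25.4, 22.4, 18.2 and 21.6 CPM in control isotype and 16.9, 18.0, 15.0, 15.2 and 12.98 in B2m-null isotype, a change of -0.61 ± 0.14 (SE), adjusted p = 0.015. With all gated cells the B2m-null mice were all below the control mice, by a small margin. In cleaned gates the groups overlapped, with B2m-null mice up to 18.3 CPM and control mice from 18.0. Serpinb6a in macrophages went the other way, from 195, 256, 292, 316 and 334 CPM to 461, 442, 446, 318 and 609.8 (0.65 ± 0.19 (SE), adjusted p = 0.0399), and B2m-null isotype pool 2 mouse 1 overlapped with the controls. With lanes as units neither was called, Serpinb9 at -0.52 (adjusted p = 0.23) and Serpinb6a at 0.66 (adjusted p = 0.273). Cleaned gates kept all 5 calls and added 4, for 9 of 27 tests (33.3%, against 3.73% of all tests). The added ones were Serpina3g in dendritic cells, Serpinb6a in monocytes (1.13, but -0.75 with stricter gates, and called in 1 of 17 settings), and Serpinb6b (-0.93) and Serpinb9 (-1.19) in T cells. With all gated cells those in T cells were -0.50 ± 0.20 (SE), adjusted p = 0.212 and -0.77 ± 0.22 (SE), adjusted p = 0.0897, called in 2 and 3 of 18 settings and in no leave-out. All 5 calls were lost, with values kept in sign, without control isotype pool 1 or without B2m-null isotype pool 1, where 0.0341% and 0.347% of all tests were called, and that of Serpinb9 also without B2m-null isotype pool 2 (-0.50). Serpina3g in macrophages was between -2.35 and -1.71 over all leave-outs, with an adjusted p of up to 0.118.

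The second comparison set CD40 against isotype in B2m-null tumours. Serpina3g rose in T, dendritic, monocyte and macrophage gates, Serpina3f rose with it in the same gates, Serpinb9 rose in macrophages, Serpinb6a rose in NK cells and fell in macrophages. Of 28 tests, 15 were called, 14 higher and 1 lower, or 53.6%, against 23.8% of all gene and gate tests (12.4% higher and 11.4% lower). The called members were 3 of 6 in T cells, 1 of 4 in NK cells, 3 of 6 in dendritic cells, 3 of 6 in monocytes and 5 of 6 in macrophages, beside 23.9%, 5.97%, 16.9%, 25.9% and 35.8% of all genes in these gates. The members' median was 0.73, and all genes' medians lay between -0.017 and 0.029 in the gates. Cleaned gates called 14 of 27 (51.9%, against 21.8%), of which 11 were among the 15. Serpinb1a in T cells is among the 15 and was known beforehand, so it is given further on without a test. Without it 14 of 27 were called. The whole list was made with results of these data known, so no count of its calls in any comparison is independent support. The count was 11 of 30 with lanes as units, where 7.63% of all tests were called. It was 10 of 28 with stricter gates (20.1% of all tests), 10 of 26 with thinned cells (16.9%) and 17 of 30 with no filter (12.3%). It was 8 of 28 without B2m-null isotype pool 1 (12.1%), 9 of 28 without B2m-null CD40 pool 1 (20.9%) and 10 of 28 without B2m-null isotype pool 2 (23.4%). Calls that stood in every leave-out of a pool or mouse were Serpinb6a in NK cells, Serpina3g in dendritic cells and monocytes, Serpina3f in monocytes and Serpinb9 in macrophages. Leave-outs were run with all gated cells only. Lanes as units ended the calls of Serpina3f in T cells (adjusted p = 0.0945), Serpinb9 in monocytes (0.126), and Serpinb6b (0.181) and Serpinb6a (0.0997) in macrophages. This comparison shares the B2m-null isotype mice with the one above, so a low value in those mice enters both.

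Serpina3g in dendritic cells was 118, 266, 254 and 184 CPM in the 4 B2m-null CD40 mice, all above the 18.9 to 95.7 CPM of the isotype mice (2.13 ± 0.36 (SE), adjusted p = 0.0015). In monocytes it was 104, 99.0, 105 and 162 CPM against 8.56 to 78.9, also without overlap (1.70 ± 0.36 (SE), adjusted p = 0.00244). In macrophages it was 64.7, 82.2, 63.8 and 71.3 CPM, and 1 isotype mouse at 65.9 CPM overlapped (1.37 ± 0.37 (SE), adjusted p = 0.00829). In T cells it was 195, 171, 157 and 194 CPM against 93.2, 49.9, 227, 106 and 83.8, where B2m-null isotype pool 1 mouse 3, with 49 cells, was above all treated mice (0.97 ± 0.25 (SE), adjusted p = 0.00893). The cleaned gates gave 1.98, 1.63, 1.34 and 0.95 in these 4 gates, all called. The monocyte change was 1.19 without B2m-null isotype pool 1 and 2.89 without B2m-null isotype pool 2, and the dendritic change 1.67 and 2.89. The macrophage call was lost without B2m-null isotype pool 1 (1.096) and the T cell call without B2m-null isotype pool 2 (0.90). In NK cells the change was 0.30 ± 0.30 (SE), adjusted p = 0.621. The dendritic gates of this group are small, with 178 cells in 4 mice.

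Serpina3f rose in monocytes, from 3.96, 1.71, 0, 5.16 and 3.28 CPM to 10.9, 14.7, 17.3 and 19.5 (2.16 ± 0.35 (SE), adjusted p = 0.000356), without overlap. In macrophages it rose by 1.53 ± 0.43 (SE) on the log2 scale (adjusted p = 0.0103), to 7.08 to 11.4 CPM. There the groups overlapped, with B2m-null isotype pool 2 mouse 1 at 8.44 CPM. The macrophage call was lost without B2m-null isotype pool 1 (1.27) or B2m-null CD40 pool 2 (1.49). Both calls held in cleaned gates, at 1.97 and 1.54. Its calls in dendritic cells (2.88 ± 0.80 (SE), adjusted p = 0.0202) and T cells (1.16 ± 0.40 (SE), adjusted p = 0.0421) did not: it was too low to test in cleaned dendritic gates, and was 0.70 ± 0.39 (SE), adjusted p = 0.238 in cleaned T cells. The T cell change was 0.72 without B2m-null CD40 pool 1, and its call was lost there and without either B2m-null isotype pool. The dendritic call was also lost without B2m-null CD40 pool 1 (1.91) or B2m-null isotype pool 1 (2.49), and the change was 4.11 without B2m-null isotype pool 2. In the dendritic gate, B2m-null CD40 pool 1 mouse 2 held 103 CPM from 19 UMIs, against 8.19 to 19.7 CPM in the other 3 mice, and 10.0 CPM from 1 UMI when cleaned.

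**Figure D3:**
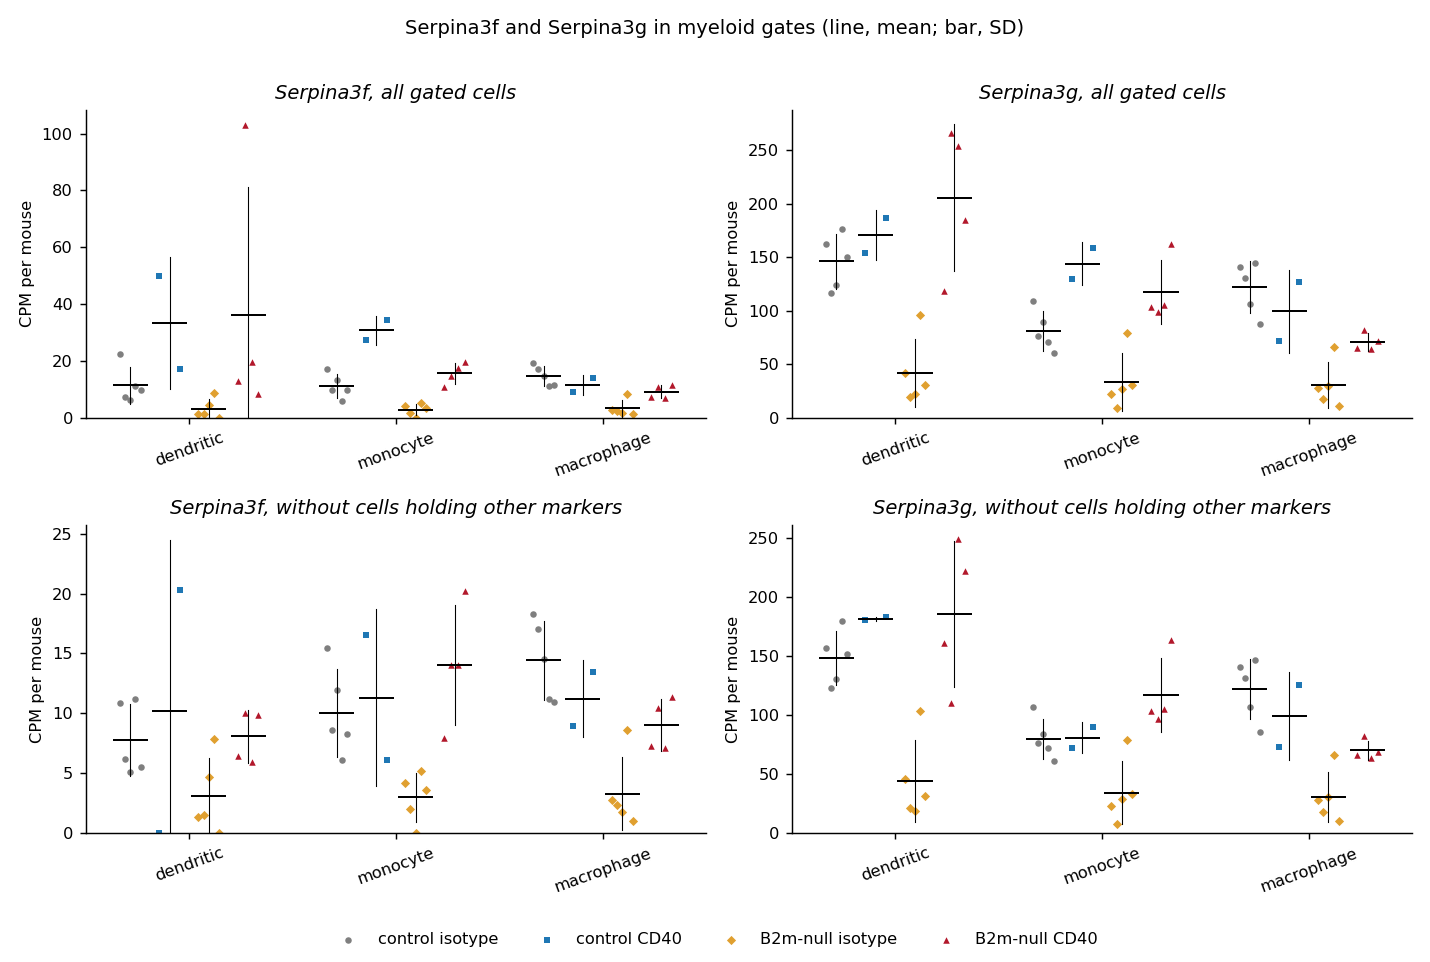
Serpina3f (left) and Serpina3g (right) per mouse in the 3 myeloid gates (x axis), as CPM from 0 (y axis), for all gated cells (top) and cleaned gates (bottom), with mean and SD. In dendritic cells Serpina3g of the B2m-null isotype mice, at 18.9 to 95.7 CPM, lies below every mouse of the other 3 groups, and the raised Serpina3f of control CD40 monocytes is lower in the cleaned gates.

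Serpinb9 in macrophages was 18.5, 32.1, 20.6 and 24.0 CPM under CD40 against 16.9, 18.0, 15.0, 15.2 and 12.98 under isotype, without overlap, a change of 0.85 ± 0.15 (SE), adjusted p = 0.000394. It kept its call in every other setting tried, though in cleaned gates the groups overlapped (isotype up to 18.33 CPM, CD40 from 18.29). Serpinb6b, at most 15.8 CPM in macrophages, rose by 0.89 ± 0.28 (SE), adjusted p = 0.0183, with overlap between the groups, and by 0.37 without B2m-null isotype pool 2, where the call was lost. Serpinb6a in macrophages fell to 245, 180.0, 311 and 323 CPM from 461, 442, 446, 318 and 609.8 (-0.56 ± 0.20 (SE), adjusted p = 0.0356); the call was lost without either B2m-null isotype pool or B2m-null CD40 pool 1, the last at -0.26. In NK cells Serpinb6a went from 50.5, 12.9, 54.7 and 30.3 CPM to 143, 179, 149.6 and 88.0, without overlap, though the mouse at 12.9 CPM had 1 UMI (1.83 ± 0.27 (SE), adjusted p = 0.000699). The cleaned NK gate gave a smaller change, 1.04 ± 0.28 (SE), adjusted p = 0.0291, and there the groups overlapped (isotype up to 93.4 CPM in 3 mice, CD40 from 84.3). Summed fibroblast markers were 4.53 to 934 CPM in the NK gates of B2m-null CD40 before cleaning and 4.96 to 25.8 after.

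Serpinb6a in dendritic cells was called higher, at 1.93 ± 0.42 (SE), adjusted p = 0.00552, with 472, 249.8, 167 and 81.9 CPM under CD40 and 48.6 to 85.0 under isotype. In the cleaned dendritic gate the values were 32.1, 10.0, 17.8 and 19.8 CPM and 14.7 to 38.1, a difference of -0.26 ± 0.42 (SE), adjusted p = 0.773, and the rise was not seen. Summed fibroblast markers in these dendritic gates were 0 to 14151 CPM before cleaning and 0 to 19.3 after. In monocytes Serpinb6a was 0.01 ± 0.42 (SE), adjusted p = 0.991 with all cells and fell by 1.01 ± 0.25 (SE) in cleaned gates (adjusted p = 0.00462). In the cleaned gates it was 32.1 to 83.1 CPM under isotype and 20.2 to 31.9 under CD40. Over 17 settings this change ran from -1.01 to 1.33 and was called in 1. Serpinb9 in monocytes was at the threshold (0.92 ± 0.33 (SE), adjusted p = 0.0496) and, without B2m-null CD40 pool 1, at 0.20. It was called in 6 of 17 settings and in 2 of 8 leave-outs, and not when cleaned (0.70, adjusted p = 0.063).

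In T cells Serpinb1a was among the changes noted in earlier results of these data, so it is described without a test. It was 33.1, 51.5, 37.4 and 34.2 CPM under CD40 and 17.7, 37.5, 4.73, 12.8 and 14.0 under isotype, and in cleaned gates 33.5, 49.95, 37.1 and 35.6 against 7.31, 12.1, 0, 8.35 and 13.1 CPM, where 0 UMIs allowed up to 29.4 CPM and all treated mice lay above all isotype mice. Its log2 change was 1.47 ± 0.32 (SE), and 2.27 ± 0.32 (SE) when cleaned. In CD4 T cells it was 28.5, 96.0 and 63.1 CPM in the 3 B2m-null CD40 mice with at least 20 such cells and 23.5 and 33.0 in the 2 such isotype mice, which overlapped. In CD8 T cells it was 28.9, 53.4, 21.3 and 21.0 under CD40, above the 0 to 10.5 CPM of isotype, where 0 UMIs allowed up to 29.5 and 20.8 CPM. The granzyme inhibitors of T cells did not pass with all gated cells, at 0.53 ± 0.23 (SE), adjusted p = 0.11 for Serpinb9 and 0.14 ± 0.21 (SE), adjusted p = 0.694 for Serpinb6b. In cleaned T cells both were called higher, Serpinb9 from 87.8, 60.7, 49.0, 109 and 68.2 to 145, 169, 138 and 175 CPM (1.06 ± 0.24 (SE), adjusted p = 0.00535) and Serpinb6b by 0.95 ± 0.20 (SE), adjusted p = 0.00372. Over the 18 settings Serpinb6b was called in 1 and Serpinb9 in 3. In CD8 T cells, not cleaned, Serpinb9 was 146 ± 88.9 (SD, n = 5) CPM under isotype and 143 ± 24.8 (SD, n = 4) under CD40, and Serpinb6b 180.4 ± 87.4 (SD, n = 5) and 163 ± 14.4 (SD, n = 4), with no rise. Cleaning took 22.7% of the T cells of B2m-null isotype and 2.74% of those of B2m-null CD40. Summed dendritic markers in the T gates of B2m-null isotype were 375 to 1189 CPM before cleaning and 27.3 to 60.7 after, against 31.8 to 80.7 and 8.41 to 21.3 in B2m-null CD40. Mature dendritic cells, as given above, have high levels of both genes, and their part in the T gate was not tested further.

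The third comparison set CD40 against isotype in control tumours. Serpina3g did not pass in any gate, and 4 other serpins were called higher in monocytes, none of them in cleaned monocytes. With all gated cells 4 of 28 tests were called (14.3%), a share near the background of 16.9%. All 4 were among the 6 members in monocytes, where 15.1% of all genes were called: Serpina3f (1.46 ± 0.34 (SE), adjusted p = 0.0104), Serpinb1a (1.68 ± 0.43 (SE), adjusted p = 0.015), Serpinb6a (1.64 ± 0.48 (SE), adjusted p = 0.0302) and Serpinb9 (1.42 ± 0.36 (SE), adjusted p = 0.0146). Serpinb6a, for example, was 135 and 137 CPM in the 2 treated mice, which share a pool, against 31.0 to 62.7 under isotype. How many of all genes separate these groups was not counted. Without a control pool or a control CD40 mouse, Serpinb1a (1.49 to 2.02) and Serpinb6a (1.41 to 1.84) kept their size and lost their calls; with 1 control CD40 mouse the spread comes from the other groups. The count of calls was 1 without control isotype pool 1 (5.77% of all tests called) or without control CD40 mouse 1 (5.23%), 2 without control isotype pool 2 (12.2%) and 3 without control CD40 mouse 2 (1 higher and 2 lower, beside 7.14%). It was 7 without B2m-null isotype pool 2 (18.5%) or either B2m-null CD40 pool (20.6% and 19.4%). None of the 4 was called in cleaned monocytes, where the changes were 0.12, -0.65, 0.65 and 0.36, with adjusted p of 0.919, 0.575, 0.28 and 0.622. Summed neutrophil markers in those monocyte gates were 1401 to 3861 CPM against 45.9 to 119 under isotype, and fibroblast markers 4443 to 5073 against 276 to 1358. Cleaning lowered both lists to at most 66.7 CPM in control CD40 and removed 7.80% of the cells. The part of those cells in the all-cell values was not tested beyond this removal.

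Cleaned gates of control tumours called 2 of 27 members' tests (7.41%, against 14.4%), both higher. One of them, Serpinb1a in T cells, is again described without a test, which leaves 1 call. It was 20.2 and 13.9 CPM in the 2 treated mice and 2.87 to 12.1 CPM under isotype, a log2 change of 1.33 ± 0.31 (SE), and of 0.48 ± 0.32 (SE) with all gated cells. Serpinb9 in macrophages was 29.9 and 25.8 CPM against 18.0 to 25.4 (0.46 ± 0.16 (SE), adjusted p = 0.0486), and with all gated cells 0.45 ± 0.17 (SE), adjusted p = 0.0605, called in 2 of 16 settings. The Serpina3g change in control tumours was -0.14 ± 0.43 (SE) in macrophages, 0.16 ± 0.44 (SE) in dendritic cells, 0.80 ± 0.41 (SE) in monocytes (0.04 when cleaned), 0.27 ± 0.28 (SE) in T cells and 0.09 ± 0.33 (SE) in NK cells, with adjusted p from 0.2 to 0.919. Serpinb6a in NK cells was 95.9 and 107 CPM in the treated mice, above 46.5 to 66.9 under isotype, at 0.99 ± 0.28 (SE), adjusted p = 0.0607, and 0.74 ± 0.27 (SE), adjusted p = 0.144 in cleaned gates. Serpinb6b in the small dendritic gates of control CD40 was 156 and 399.7 CPM, against 392 to 623 under isotype (-0.90 ± 0.35 (SE), adjusted p = 0.102), and Serpinb9 was 89.9 and 149 against 206 to 317 (-1.23 ± 0.43 (SE), adjusted p = 0.0721). In cleaned gates Serpinb6b was 451 and 477 CPM against 413 to 672 (-0.17 ± 0.28 (SE), adjusted p = 0.882), and Serpinb9 105 and 178 against 217 to 340.4 (-0.91 ± 0.48 (SE), adjusted p = 0.513). These gates held 47 and 56 cells before cleaning.

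The difference of the CD40 effect between tumour genotypes was tested as an interaction. No member was called with all gated cells in edgeR (0 of 28, against 9.97% of all tests), 11 of 28 had an unadjusted p under 0.05, beside 24.7% of all tests, and DESeq2 called 2 of 26, beside 15.5%. Serpina3g differed by 1.51 ± 0.58 (SE), adjusted p = 0.0788 in macrophages, 1.97 ± 0.58 (SE), adjusted p = 0.126 in dendritic cells and 0.90 ± 0.55 (SE), adjusted p = 0.309 in monocytes, and none of the 3 was called. The monocyte value was 0.40 without B2m-null isotype pool 1 and 2.09 without B2m-null isotype pool 2, where it was called (adjusted p = 0.00386). Serpina3f in macrophages differed by 1.68 ± 0.62 (SE), adjusted p = 0.0692. In cleaned gates 5 of 27 were called (18.5%, against 11.1%). They were Serpina3g (1.58 ± 0.51 (SE), adjusted p = 0.0434), Serpina3f (1.85 ± 0.59 (SE), adjusted p = 0.0417) and Serpinb6a (-1.66 ± 0.43 (SE), adjusted p = 0.0142) in monocytes, and Serpinb6b (0.99 ± 0.30 (SE), adjusted p = 0.0364) and Serpinb9 (1.39 ± 0.36 (SE), adjusted p = 0.0154) in T cells. With stricter gates the Serpina3g difference in monocytes was -0.11. With all gated cells the Serpina3f difference in monocytes was 0.71 ± 0.49 (SE), adjusted p = 0.378, Serpinb6a there -1.63 ± 0.65 (SE), adjusted p = 0.107, Serpinb6b in T cells 0.62 ± 0.33 (SE), adjusted p = 0.246 and Serpinb9 in T cells 1.01 ± 0.36 (SE), adjusted p = 0.0785. That of Serpina3f in monocytes was 0.23 without control isotype pool 1 and 1.30 without B2m-null isotype pool 2. The 3 monocyte differences were called in 1 to 2 of 16 settings and those in T cells in 1 and 3 of 17. The control CD40 arm of each of these rests on 2 mice of 1 pool. With all gated cells the count was 4 without B2m-null isotype pool 2 (14.4% of all tests called) or without B2m-null CD40 pool 2 (9.51%), and 1 without B2m-null CD40 pool 1 (10.7%).

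Under CD40, no member was called between B2m-null and control tumours with all gated cells in edgeR (0 of 28, against 6.14% of all tests); 6 of 28 had an unadjusted p under 0.05, beside 21.3% of all tests, and DESeq2 called 0 of 26, beside 10.0%. Serpina3g in macrophages was 64.7, 82.2, 63.8 and 71.3 CPM in B2m-null CD40 and 71.9 and 127 in control CD40 (-0.50 ± 0.43 (SE), adjusted p = 0.483). A p above the threshold does not show equal levels. In cleaned gates the 1 call of 27 (3.70%, against 7.42%) was Serpinb1a in T cells and supports nothing, since its rise was known. It was at 33.5, 49.95, 37.1 and 35.6 CPM in B2m-null CD40 against 20.2 and 13.9 in control CD40. Its log2 difference was 1.30 ± 0.27 (SE), given without a p. The count with all gated cells was 1 without B2m-null CD40 pool 1 (6.54% of all tests called) and 2 without B2m-null CD40 pool 2 (6.26%).

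Proteases that serpins of leukocytes are known to inhibit were read in the same fits, as a list of 12 genes. In B2m-null tumours 16 of 43 tests of a protease in a gate were higher with CD40 and 1 lower, beside 12.4% and 11.4% of all tests, and in control tumours 7 were higher and 4 lower, beside 16.9% called. Of 42 tests in cleaned gates, 13 were called higher with CD40 in B2m-null tumours and 0 lower, beside 21.8% of all tests called. In control tumours 5 were higher and 0 lower, a share near the 14.4% of all tests called, and all 4 lower calls were lost. Gzma, encoding granzyme A, rose in T cells (3.09 ± 0.41 (SE), adjusted p = 6.69e-05) and NK cells (2.202 ± 0.20 (SE), adjusted p = 5.72e-06) of B2m-null tumours and in T cells of control tumours (1.97 ± 0.42 (SE), adjusted p = 0.00324). Gzmb, encoding granzyme B, rose in NK cells of B2m-null tumours (1.47 ± 0.34 (SE), adjusted p = 0.0156), from 630.5 ± 422 (SD, n = 4) to 1701 ± 604 (SD, n = 4) CPM. Serpinb9 and Serpinb6b in those NK cells changed by 0.42 ± 0.20 (SE), adjusted p = 0.216 and 0.53 ± 0.21 (SE), adjusted p = 0.133. Ctsb in macrophages, encoding cathepsin B, was -0.12 ± 0.13 (SE), adjusted p = 0.5 in B2m-null and 0.51 ± 0.16 (SE), adjusted p = 0.0273 in control tumours. Ctsl in macrophages, encoding cathepsin L, was 0.07 ± 0.22 (SE), adjusted p = 0.849 in B2m-null tumours, beside the Serpina3g rise there. Between the genotypes under isotype, 0 protease tests of 43 were higher and 6 lower, and 0 and 6 of 42 in cleaned gates. Over all tests 2.93% were called with all gated cells and 3.73% in cleaned gates.

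A list of 16 readouts of interferon and NF-kB signalling was read beside Serpina3g and Serpina3f, and most of its calls in the myeloid gates had the sign of theirs. With CD40 in B2m-null tumours 44 of 80 tests of the list were higher and 4 lower, 15 of 16 higher in macrophages, where the list's median was 1.16 against -0.016 for all genes. Over all tests 12.4% were higher. In control tumours 6 were higher and 7 lower, near the 16.9% called over all tests. Between genotypes under isotype, 20 of 80 were lower in B2m-null tumours and 0 higher, beside 2.93% called over all tests; 10 of these were in macrophages, 9 in monocytes and 0 in NK cells. Irf1, an interferon-induced transcription factor, changed in macrophages by -1.52 ± 0.24 (SE), adjusted p = 0.00239 between genotypes and 1.41 ± 0.25 (SE), adjusted p = 0.000438 with CD40 in B2m-null tumours. Nfkbia and Tnfaip3, feedback inhibitors of NF-kB, were 0.50 ± 0.14 (SE), adjusted p = 0.00924 and 0.41 ± 0.15 (SE), adjusted p = 0.0389 in macrophages with CD40 in B2m-null tumours. The list was chosen with earlier results known, and the 2 contrasts share the B2m-null isotype mice.

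Over all genes named Serpin, the 6 members included, CD40 in B2m-null tumours raised 31 of 72 gene and gate tests and lowered 1, and in cleaned gates 16 of 51 and 2. The members alone gave 14 higher and 1 lower of 28 tests, and 12 and 2 of 27 in cleaned gates. Most of the family's cleaned calls are therefore the members' own. The other Serpin genes were tested gene by gene and not as a set. In control tumours 15 of 72 were higher and 0 lower, and 4 of 51 and 2 in cleaned gates. Over all genes 23.8% and, cleaned, 21.8% were called in either direction in B2m-null tumours, and 16.9% and 14.4% in control tumours. The family's calls with all gated cells of control tumours were all higher. A share of all genes called higher is not given for that comparison. With all gated cells the 3 largest changes outside the 6 members lay in the dendritic gates, which held fibroblast markers, in either tumour type. They were led by Serpinb2 in control tumours (fitted at 9.28 ± 1.12 (SE), adjusted p = 0.000906) and by Serping1, the C1 inhibitor, in B2m-null tumours (5.86 ± 0.89 (SE), adjusted p = 0.000992). In cleaned gates of B2m-null tumours the 3 largest were Serping1 (2.69 ± 0.62 (SE), adjusted p = 0.00276), Serpinb2 (1.37 ± 0.39 (SE), adjusted p = 0.0105) and Serpini1 (1.05 ± 0.40 (SE), adjusted p = 0.0479), all in macrophages.

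The genes whose levels ran most like each member's were found by Pearson's r of log2(CPM + 1) over the 20 combinations of gate and group, among 8414 genes with a mean of at least 10 CPM. The 20 points share libraries and mice, so r is a description. Serpina3g came closest to Serpina3f (r = 0.917), Plaat3 and H2-T22, and Serpina3f to Serpina3g (r = 0.917), Gbp4 (r = 0.894) and H2-T22 (r = 0.844). Serpinb6b came closest to Arpc5l (r = 0.969), Stat4 (r = 0.961) and Serpinb9 (r = 0.958). Serpinb9 came closest to Serpinb6b (r = 0.958), Gm36723 (r = 0.940) and 1700025G04Rik (r = 0.933). Serpinb6a came closest to Tspan4 (r = 0.916), Vcam1 (r = 0.891) and Slc25a39 (r = 0.875), and Serpinb1a to Tuba1a (r = 0.931), Sema7a (r = 0.930) and Crip2 (r = 0.889). Among pairs of members, Serpinb6b with Serpinb9 (r = 0.958) and Serpina3f with Serpina3g (r = 0.917) were the closest, and Serpinb6a with Serpinb6b the farthest (r = -0.37). In cleaned gates the closest gene to Serpinb9 was again Serpinb6b (r = 0.966), while Serpina3f and Serpina3g were no longer among each other's 3 closest genes, which Il12rb1 (r = 0.874) and Plaat3 (r = 0.878) led.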

How the data were processed

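The files hold droplet (10x 3') UMI counts per gene and cell, with hashtag counts, as the authors deposited them; Cell Ranger 3.0.0, bcl2fastq 2.20.0.422 and the mm10 build are named in the submitters' processing notes. How reads shared by near-identical genes were counted is not given in the sources used here. Barcodes were assigned to mice from the hashtag counts (posterior of at least 0.9, hashtag doublets removed; 8.30% of barcodes), leaving out cells under 200 genes or over 10% mitochondrial counts. Gates were set on summed marker UMIs, none of them a serpin. No other doublet caller was run. Counts were summed per mouse and gate (at least 20 cells) and fitted over all genes with TMM scaling in edgeR 4.0.16 (quasi-likelihood test, Benjamini-Hochberg adjustment within gate and contrast, R 4.3.3), with all 4 groups in 1 fit. Each SE (standard error) was derived from that test, as the absolute log2 change divided by the square root of its F statistic. Levels are UMIs per 1000000 in a gate (CPM). Tested on simulated data for CD40 in B2m-null tumours (6079 to 12411 genes per gate), the fit recovered 22% to 30% of 2-fold and 96% to 100% of 4-fold changes, so smaller changes are often missed. The simulation gave every gene the same dispersion, changed only genes above a low count and drew mice independently, with no spread shared by a pool. Its rates therefore need not hold for members with few UMIs or for spread between pools. Alternatives were DESeq2 1.42.0, RLE scaling, no filter on low counts, lanes as units, stricter gates, at least 50 cells, cells thinned to 1500 UMIs, a replicate block, CD8 and non-mature dendritic subsets, leave-outs and cleaned gates. Lanes as units included cells that passed the filters and were not hashtag doublets, also those not assigned to a mouse. Cleaned gates lack cells with 3 or more UMIs of Col1a1, Col3a1 and Dcn, any Cdh5, or 5 or more of S100a8 and S100a9 or of melanoma markers, and in T and NK gates Siglech or 2 or more UMIs of dendritic markers.

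The genes named are the 6 members, up to 3 other Serpin genes per CD40 comparison, 4 examples of proteases, 3 of readouts (a further one is not reported here), and the 3 genes most like each member. The members and lists were chosen with earlier results of these data known.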

Additional observations from a re-analysis of the deposited data

Results flagged for a closer look

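Of 90 groups of 4 or 5 mice (a member in a gate), 9 held a mouse that stood apart from its group by Dixon's ratio at the 95% level; chance gives about 1 in 20. Serpina3f in the dendritic gate of B2m-null CD40 pool 1 mouse 2 was 103 CPM, from 19 UMIs in 34 cells, against at most 19.7 CPM in the other mice. Serpina3f in macrophages of B2m-null isotype pool 2 mouse 1 was 8.44 CPM, against at most 2.83 CPM in the others of that group. Serpina3g in monocytes of B2m-null CD40 pool 2 mouse 2 was 162 CPM, the next mouse being at 105 CPM.

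Serpinb1a in NK cells of control isotype pool 1 mouse 3 was 35.7 CPM, from 5 UMIs, against at most 10.3 CPM. Serpinb1a in macrophages of B2m-null isotype pool 1 mouse 2 was 16.3 CPM against at most 7.06 CPM, and Serpinb6b in monocytes of the same mouse was 34.3 CPM against at most 10.3 CPM. Serpinb6a in T cells of control isotype pool 1 mouse 2 was the lowest of its group, at 55.3 CPM, the next being 81.6 CPM. Serpinb6a in the dendritic gate of control isotype pool 1 mouse 1 was 117 CPM against at most 65.8 CPM. Serpinb9 in T cells of control isotype pool 2 mouse 1 was 306 CPM against at most 189 CPM in the other mice.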

How the results depend on the processing

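Of the members' values called with all gated cells, cleaning kept 16 on their side of the threshold, weakened 5 and turned 2: Serpinb6a in dendritic cells with CD40 in B2m-null tumours (-0.26) and Serpinb1a in monocytes with CD40 in control tumours (-0.65). Over the other settings 154 values kept their call and 36 lost it. Serpinb6a in monocytes with CD40 in B2m-null tumours, at 0.01, lay between -1.01 and 1.33 over 17 settings. It changed sign in cleaned gates (-1.01), with no filter (-0.008), with lanes as units (-0.11), thinned (-0.027) and with the replicate block (-0.017). Over leave-outs it ranged from -0.58 (without B2m-null CD40 pool 1) to 0.45, with -0.13 without B2m-null isotype pool 2. Serpinb6b in T cells there ranged from -0.067 (without B2m-null CD40 pool 2) to 0.33 over leave-outs. With stricter gates Serpinb6a in monocytes between genotypes under isotype was -0.75, and the difference of CD40 effects for Serpina3g in monocytes was -0.11. The causes were not tested.

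Members called are given here with the share of all tests called in the same setting. With CD40 in control tumours they were 8 of 28 with at least 50 cells (19.2%) and 8 of 30 with no filter (9.13%), each 6 higher and 2 lower. The control CD40 dendritic gates held 47 and 56 cells. Stricter gates gave 2 of 28 (15.0%), thinning 2 of 26 (11.3%) and cleaned gates 2 of 27 (14.4%), all higher. Leave-outs of a pool gave 1 to 7 (5.77% to 20.6%). Lane values of any comparison with control CD40 rest on 1 unit in that arm, so their counts are left out. With CD40 in B2m-null tumours the members called were 11 of 30 with lanes (7.63%), 10 of 28 with stricter gates (20.1%) and 10 of 26 thinned (16.9%). No filter gave 17 of 30 (12.3%), and leave-outs 8 to 15 (12.1% to 23.4%). Between genotypes under isotype, DESeq2 called 8 of 21 (7.79%), lanes 2 of 30 (0.319%) and no filter 10 of 30 (2.00%). Cleaned gates called 9 of 27 (3.73%), and leave-outs 0 to 6 (0.0341% to 6.48%). Between genotypes under CD40, no filter called 1 of 30 (3.08%), thinning 1 of 26 (3.76%) and cleaned gates 1 of 27 (7.42%). Leave-outs of a pool called 0 to 2 (3.97% to 8.31%). For the difference of CD40 effects, DESeq2 called 2 of 26 (15.5%), thinning 1 of 26 (7.43%) and no filter 3 of 30 (4.79%). Cleaned gates called 5 of 27 (11.1%), and leave-outs of a pool 0 to 4 (3.32% to 14.4%). The share of all tests called also moved, for CD40 in B2m-null tumours from 7.63% (lanes) to 27.6% (block). The difference between pool 1 and pool 2, taken over genes in each gate, correlated between groups at -0.14 to 0.30. The highest value was between the B2m-null groups in monocytes. With 2 pool numbers only, this cannot show whether pools of the same number share a batch. A replicate block gave 12 of 27 calls with CD40 in B2m-null tumours (27.6% of all tests) and 6 of 27 between genotypes under isotype (4.11%). Serpina3f and Serpinb1a in NK cells and Serpina3f in small dendritic gates rest on few UMIs, which limits what could be detected.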
